A study of Homo sapiens with 66 samples.

Results

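In RNA of THP-1 cells, 1303 A-to-I editing sites lost little of their editing after ADAR was targeted. They were chosen by a rule on read counts. A site needed at least 90 reads summed over the 9 untreated CTRL libraries and at least 90 over the 9 ADAR-targeted libraries, editing in the CTRL libraries of 10% to below 50%, and editing in the ADAR-targeted libraries of at least 0.8 times that value. Editing is the percentage of reads on a site that carry G at an A of the reference. Of 475962 sites listed in study 1, 252304 had the reads and 20402 of these also had CTRL editing in the range. The 1303 sites were 6.39% of the 20402, and the other 19099 sites of the range are used below for comparison. The sites that met the rule are called retained sites, as a name for the rule alone.

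THP-1 cells are a human line from a monocytic leukemia. Study 1 used a STING-deficient, Cas9-transgenic THP-1 clone that received a pair of gRNAs by nucleofection. CTRL cells received the nontarget gRNA NC1 in both places, ADAR cells NC1 and ADAR, hnRNPC cells hnRNPC and NC1, ADAR+hnRNPC cells hnRNPC and ADAR, and GFP cells GFP and NC1. Each of these groups was harvested on day 3, 4, and 5 with 3 replicates a day (9 libraries a group), and NC1 cells given IFN-alpha were harvested on day 4 (3 libraries). Study 2 used a Cas9-transgenic clone of WT genotype, other gRNAs, and day 4 alone, with 2 replicates for each of the 4 combinations of hnRNPC and ADAR gRNA. Its total RNA was used here and its cytosolic RNA as an alternative. Both studies rest on 1 clone each, and all cells expressed Cas9. Libraries were made from RNA depleted of ribosomal RNA, so that introns and intergenic transcripts were counted together with exons. The replicates are numbered in the labels, and p values below measure the spread between these libraries. The paper describes the replicates as independent experiments, and the labels do not say whether a number marks 1 experiment. The 9 libraries of a group may therefore not be 9 independent units.

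Inosine is made from adenosine in double-stranded RNA by the ADAR family of deaminases and is read as guanosine by reverse transcriptase. ADAR (ADAR1) is the widely expressed, interferon-inducible member, and ADARB1 (ADAR2) is a related deaminase with its own preferred sites. Most human editing falls in inverted Alu repeats of introns and 3' UTRs, and a G just before the edited A is known to be disfavored by ADAR.

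The reference bases around some of the sites on which the results turn are printed here. Each line holds 29 bases of GRCh37, 5' to 3' on the strand of the site, with the edited A in capitals. The first 4 are sites where the 95% interval of the log2 odds ratio of G reads between hnRNPC and ADAR+hnRNPC cells lay within -0.5 to 0.5, with SAMHD1 as the site with the most reads of all. Whether G at the EEF1A1P9 site, a pseudogene, comes from editing or from a variant in DNA was not tested.
SAMHD1, chr20:35518823-35518851, minus strand: ggaaggaaggaaggAaagagagaaagaaa
PIP5K1C, chr19:3648189-3648217, minus strand: aagaccccatctctAcaaaatatcaaaaa
EEF1A1P9, chr4:106406979-106407007, plus strand: aaagactgatcgccAttctggtaaaaagc
COG7, chr16:23400040-23400068, minus strand: cagatggatcatgaAgccaggagttcgag

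The next 3 are sites where editing was lower in ADAR+hnRNPC than in hnRNPC cells.
KNL1, chr15:40954979-40955007, plus strand: aaaaccccacctctAcaaaaaatacgaaa
NDUFB1, chr14:92585252-92585280, minus strand: agtggcgtcatctcAgctcactgcaacct
RPAP3-DT, chr12:48100873-48100901, plus strand: tgtcttacaaggtcAtatcattagcacat

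The last 3 are the 2 sites whose editing was higher with IFN-alpha (COX18 and MAD2L1) and a site of the cluster on chromosome 12 from the strand opposite to RPAP3-DT.
COX18, chr4:73923554-73923582, minus strand: accctgtctgtactAaaataacaaaaaaa
MAD2L1, chr4:120979756-120979784, minus strand: caagatggagtcttAttctgtcgcccagg
chromosome 12 cluster, chr12:48100809-48100837, minus strand: ggttagtggcttccAgcttcaaatgcaca

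Reads on all editing sites ranged from 4264225 to 12674442 per library of study 1 (median 8815527, 48 libraries), and reads on the retained sites from 13592 to 40405 (median 28533). A retained site had a median of 153 reads over the 9 CTRL libraries (90 to 5303), and 968 of the 1303 had fewer than 200 reads in the CTRL or in the ADAR libraries. With the read minimum at 180, 398 sites were retained. Libraries of a group did not copy each other, with a chi-square of at least 12.1 per gene over 48 pairs. Of the THP-1 markers, CD33 (49.3 to 72.1 CPM), LYZ (74.9 to 576), and SPI1 (44.8 to 70.7) were detected in every library of study 1. CD14 (0.0966 to 4.24 CPM) and CD68 (0 to 0.274) were near 0, as were the markers of other cells CD3E, EPCAM, and COL1A1 (at most 0.317).

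The values that chose the sites are given first, without a test. Pooled over the retained sites, 22.1 to 24% of the reads of a CTRL library were edited (median 22.9, n = 9) and 20.6 to 22.9% of the reads of an ADAR library (median 21.3, n = 9). Pooled over the other sites of the range, the CTRL libraries were at 19.2 to 21.9% (median 20.1) and the ADAR libraries at 7.51 to 8.54% (median 7.86). The median retained site went from 19.5 to 18.6%, and the median other site from 16.9 to 6.38%. At the border of the rule, an intergenic site at position 56078332 of chromosome 7 (60 of 360 reads edited in CTRL, 46 of 345 in ADAR) and a site in the 3' UTR of RNF125 (39 of 182 and 30 of 175) lay just inside at a ratio of 0.8. Intronic sites of ANXA4 (22 of 131 and 18 of 134) and MDM4 (29 of 97 and 22 of 92) lay just outside at 0.7999.

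Libraries that the rule did not use showed a loss of editing at the retained sites that was smaller than at the other sites of the range. Over the retained sites, 25 to 27.8% of the reads of an hnRNPC library were edited (median 26.2, n = 9) and 19.6 to 22.3% of the reads of an ADAR+hnRNPC library (median 21.1, n = 9). All 9 ADAR+hnRNPC libraries lay below all 9 hnRNPC libraries, on each day as well. The other sites of the range went from 19.7 to 22.6% (median 21.0) to 9.02 to 13.0% (median 9.39). In the WT clone, the 4 libraries without ADAR gRNA held 23.0, 22.0, 23.6, and 24% edited reads on the retained sites that this study also lists (1012), and the 4 libraries with ADAR gRNA 16.8, 16.7, 16.7, and 15.1%. These groups did not overlap either, and on the other sites of the range the same libraries held 23.0 to 25.5% and 7.77 to 8.77%. The word retained thus describes the libraries that the rule used. In other libraries the sites were edited less after ADAR targeting, by a smaller step than their comparison sites.

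**Figure D1:**
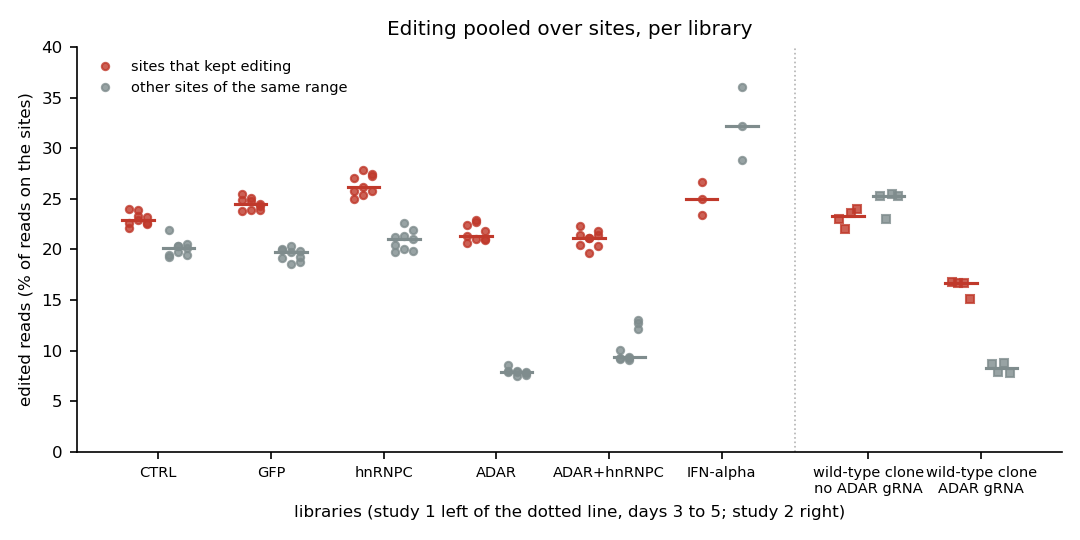
Edited reads as a percentage of all reads (y axis) pooled over the retained sites (labelled as sites that kept editing) and over the other sites of the range, 1 point per library, by group of study 1 (left of the dotted line) and of the WT clone (right), with horizontal bars at the group median. The ADAR+hnRNPC libraries sit at 19.6 to 22.3% on the retained sites, below the hnRNPC libraries at 25 to 27.8%, and at 9.02 to 13.0% on the other sites.

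Whether single retained sites lost editing in ADAR+hnRNPC compared with hnRNPC cells was tested by a quasi-binomial logistic fit per site, with the day as a covariate, a dispersion moderated by limma, and Benjamini-Hochberg adjustment over all 223632 sites tested. The filter asked for reads in both groups and for no empty value, not for editing, and 957 of the 1303 retained sites passed it. Editing was lower at 46 of the 957 (4.81%), where 6.01% of all sites tested and 36.6% of the other 14488 sites of the range were lower. It was higher at none (0.000447% of all sites tested), at 2 by Fisher's exact test on summed reads, and at 3 by limma on log2 odds. The lower sites were 122 by Fisher's exact test on summed reads, 95 by limma on log2 odds, and 29 with a minimum of 20 reads. Counts under such other settings, here and below, are given without the share of all sites. They do not compare the retained sites with other sites. With a replicate block far fewer were called lower, as given in the last section. An unadjusted p under 0.05 was reached at 243 retained sites (25.4%), compared with 20.4% of all sites tested and 67.4% of the other sites of the range. The 95% interval lay below 0 at 229 (23.9%, compared with 12.7% of all and 65.3% of the other sites) and above 0 at 9 (0.94%, 0.0237%, and 0.0207%). Of sites of the range simulated with editing at 0.5 times its level, the fit called 5 of 100, and with editing at 0.1 times 41 of 100. Only these sites were changed in the simulation, whereas 13443 real sites were called lower. Its adjustment was therefore stricter than that of the real fit, and its shares do not give the power of the real fit.

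The median log2 odds ratio of the 957 sites was -0.47 (quartiles -0.88 and -0.10), with editing of the median site going from 24 to 18.8%. For the other sites of the range it was -1.28, from 18.2 to 8.6%. The estimate was negative at 767 retained sites (80.1%). With the ratio of the rule applied to these libraries, 467 retained sites (48.8%) kept at least 0.8 of their editing, compared with 19.9% of all sites tested and 7.84% of the other sites of the range. Editing fell to under 0.5 of its level at 96 (10.0%) of the retained sites and 54.7% of the other sites. A 95% interval wholly within -0.5 to 0.5 was reached at 8 retained sites (0.836%), compared with 0.00805% of all sites and 0.0138% of the other sites of the range. Intervals of retained sites had a median width of 1.75.

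In the WT clone, 754 retained sites were tested with hnRNPC gRNA as a covariate. Editing was lower with ADAR gRNA at 9 of them (1.19%, compared with 5.18% of all 159180 sites tested and 23.5% of the other sites of the range) and higher at none (0.000628% of all sites). The lower sites were 91 by Fisher's exact test, 149 by limma on log2 odds, 18 by edgeR, and 32 in cytosolic RNA, and the higher sites 1, 3, 0, and 1. The shares of all sites called under these settings are not given here. With a replicate block no retained site was called. Leaving out either CTRL or either hnRNPC library without ADAR gRNA left 0 calls each, leaving out the second CTRL library with ADAR gRNA left 5, and leaving out the second hnRNPC library with ADAR gRNA left 4. Calls over all sites fell as well, with 0 to 4363 lower when 1 library was left out, compared with 8251 in the full fit. The median log2 odds ratio was -0.71, with editing of the median site going from 22.2 to 14.5%, and 151 sites (20%) had an unadjusted p under 0.05, compared with 24.1% of all sites tested and 64.8% of the other sites of the range. For the other sites of the range the median was -1.97. The ratio of the rule was met at 259 retained sites (34.4%), 12.4% of all sites tested, and 5.45% of the other sites.

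The studies share no library, so that both repeats can be read together. Of the 622 retained sites tested in both, 135 (21.7%) met the ratio of 0.8 in both, 250 (40.2%) in neither, and 37 (5.95%) fell to under 0.5 of their editing in both. Of the 10781 other sites of the range tested in both, 1.36% met the ratio in both, 88.6% in neither, and 48.6% fell to under 0.5 in both. The retained sites therefore comprised sites that met the rule in each data set and sites that met it in the libraries that chose them alone.

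**Figure D2:**
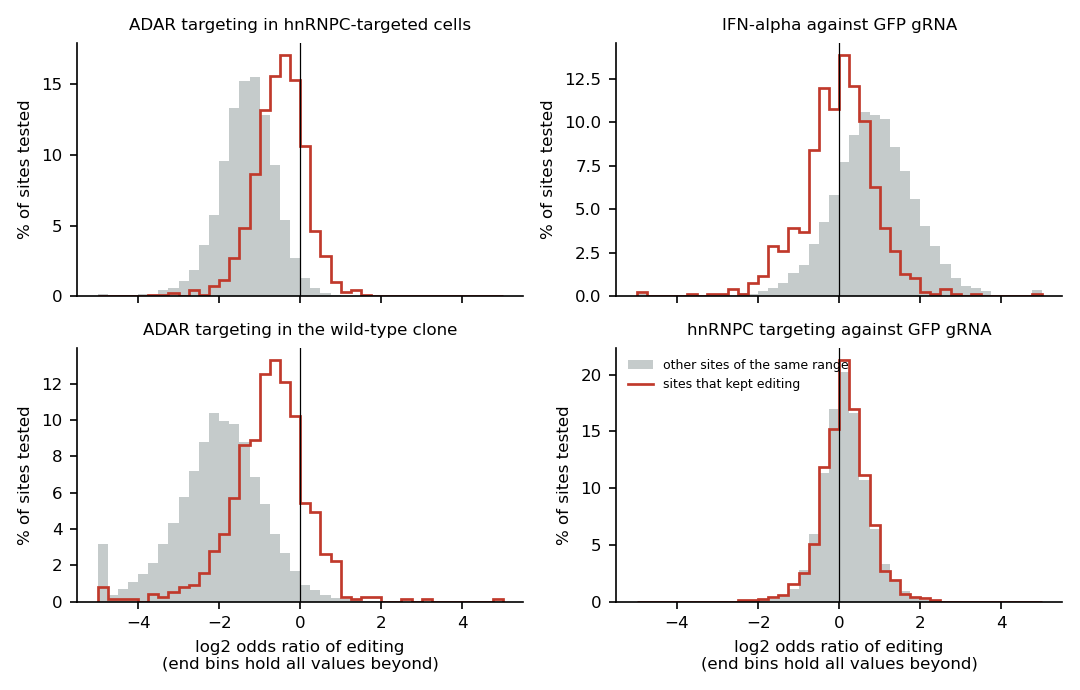
Distribution of the log2 odds ratio of editing (x axis, with the end bins holding all values beyond) as a percentage of the sites tested (y axis) for the retained sites (outline) and the other sites of the range (filled), in 1 panel for each comparison. After ADAR targeting in hnRNPC cells the medians lie at -0.47 and -1.28, in the WT clone at -0.71 and -1.97, and with IFN-alpha at 0.03 and 0.85, whereas with hnRNPC targeting they lie at 0.14 and 0.13.

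The share that met the ratio of 0.8 in ADAR+hnRNPC cells differed between kinds of retained sites. Reads were summed over the hnRNPC and over the ADAR+hnRNPC libraries, in which the ratio is taken, and the smaller sum was used. With 90 to below 200 such reads 43.9% of 672 met it, with 200 to below 500 reads 60.2% of 254, and with 500 or more reads 61.3% of 31. Among the other sites of the range, these shares went the other way with reads, from 10.2 to 5.07 and 1.56%. The share was 64.2% of 106 retained sites with CTRL editing of 40% to below 50%, and 42.4% of 500 with CTRL editing of 10% to below 20%.

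Retained sites with few neighbors were edited most alike in both groups. Of those with at most 2 other listed sites within 50 bp, 40 of 49 (81.6%) met the ratio, with a median log2 odds ratio of -0.12. With 3 or 4 neighbors, 63.2% of 76 met it, and with 5 to 9, 10 to 19, and 20 or more neighbors 46.9, 44.2, and 46.8%. Among the other sites of the range, those with at most 2 neighbors had a median log2 odds ratio of -1.40 (82 sites). By annotation, the share was 42.8% of 566 intronic retained sites, 56.4% of 110 in 3' UTRs, 57.1% of 163 outside genes, and 61.5% of 91 in exons of noncoding transcripts.

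Position and sequence were not part of the rule and are described by their counts. Of the 1303 retained sites, 788 (60.5%) lay in introns, 144 (11.1%) in 3' UTRs, 224 (17.2%) outside genes on their strand, 111 (8.52%) in exons of noncoding transcripts, 10 in coding sequence, and 10 in 5' UTRs. The other sites of the range held fewer exons of noncoding transcripts (2.83%) and more 3' UTRs (26.3%), with 54.1% in introns. A base G before the edited A, the disfavored neighbor, was found at 8.08% of the retained sites, 3.86% of the other sites of the range, and 15.2% of all sites with the reads. A G after it was found at 42.7, 44.9, and 38.2%.

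Sparse neighborhoods were more frequent among the retained sites. Of the sites of the range with 1 or 2 other sites within 50 bp, 74 of 196 (37.8%) were retained, and of the 7 with no neighbor, 3 were. The share was 13.2% with 3 or 4 neighbors and 5.46, 5.17, and 8.1% with 5 to 9, 10 to 19, and 20 or more. The cluster on chromosome 12 described below is included in these shares. At least 4 neighbors were found at 90.3% of the retained and 98.0% of the other sites of the range. Editing-cluster-rich regions (ECRs), which the authors built from clusters of edits, held 77.9 and 88.3%. By CTRL editing, which is itself a value of the rule, the share retained went from 5.11% at 10 to below 15% to 13.3% at 40 to below 50%. That share describes how the rule chose sites and is not a separate trait of them. Edges of exons, where reads over splice junctions can be misaligned, were within 5 bp at 0.23% of the retained and 0.22% of the other sites.

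Copies of the sequence were less frequent around the retained sites. The 31 bases around the site occurred more than once in GRCh37 at 54.5% of the retained and 64.7% of the other sites of the range. The same 31 bases with G in place of the edited A occurred at 41.6 and 51.0%. Reads from such copies and from the site cannot be told apart by these counts. Both shares include the cluster on chromosome 12 described below, with 106 retained sites, which was not set apart here. The windows of its 332 sites of the range were all unique and without a copy with G.

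Retained sites lay near each other, and the sites beside them lost less editing than those farther away. Another retained site was within 50 bp of 487 (37.4%). The 1413 other sites of the range within 50 bp of a retained site had a median log2 odds ratio of -0.89 in ADAR+hnRNPC compared with hnRNPC cells, with editing of the median site going from 20.1 to 12% and 17.5% of 1119 tested called lower. For the 17686 farther away the median was -1.31, from 18.1 to 8.36%, with 38.2% of 13369 called lower. The medians in the WT clone were -1.28 and -2.02. All these values include the cluster on chromosome 12 described below, with 106 retained sites, which was not set apart here.

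In genes, 1063 retained sites fell on 587 genes, of which 373 held 1 and 29 held 5 or more. RPAP3-DT, a divergent transcript of RPAP3, held the most, with 58 of its 185 sites of the range. LYST, a regulator of lysosomal trafficking, held 16 of 86 in its introns, and ZNF431, a zinc finger gene, 11 of 89 in introns and the 3' UTR. Editing of the retained sites of LYST had a median of 22.8% in hnRNPC cells (14.3 to 53.4) and 15.6% in ADAR+hnRNPC cells (10.8 to 36.7). In ZNF431, the medians were 35.8% (20 to 54.6) and 28.4% (17.9 to 51.5).

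The densest group of retained sites was a cluster of 1380 bp on chromosome 12, from 48099933 to 48101312. It held 106 retained sites, 8.14% of all, out of 332 sites of the range, of which 31.9% were thus retained. It was edited on both strands, with 58 retained sites on the plus strand in an intron of RPAP3-DT and 48 on the minus strand, where no gene is annotated. The libraries and their counting kept the strands apart. The 31-base windows of all 332 sites were unique in GRCh37, with or without the A-to-G change.

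Per library, the retained plus-strand sites of the cluster held 22.1 to 29.6% edited reads in hnRNPC cells (median 27.0) and 13.0 to 21.5% in ADAR+hnRNPC cells (median 19.7), without overlap. The retained minus-strand sites held 25.9 to 31.1% (median 27.6) and 19.7 to 27.1% (median 23.2), with an overlap of the groups. The retained sites and the other sites of the cluster are set side by side, and their difference was not tested. On the plus strand, the median log2 odds ratio was -0.75 for the 53 retained sites tested (4 called lower) and -0.72 for the 120 others (12 called lower). On the minus strand it was -0.38 for 43 retained sites (0 called) and -0.58 for 84 others (2 called lower). The medians in the WT clone on the plus strand were -0.47 and -0.45, and on the minus strand -0.24 and -0.30. At the minus-strand site printed above (position 48100823, 309 CTRL reads), editing was 18.8% in CTRL, 18% in ADAR, 20.1% in hnRNPC, and 17.9% in ADAR+hnRNPC cells.

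The result of ADAR targeting was also computed with the cluster set apart. Outside it, 861 retained sites were tested in ADAR+hnRNPC compared with hnRNPC cells, with 42 called lower, a median log2 odds ratio of -0.45, and 49.8% that met the ratio of 0.8. Inside it, 96 were tested, with 4 called lower, a median of -0.64, and 39.6% that met it. The order was the reverse in the WT clone, with 31.5% outside and 54.3% inside. With IFN-alpha, the 3 libraries held 16.6, 23.7, and 25.1% edited reads on the retained plus-strand sites of the cluster. The 3 GFP libraries of day 4 held 28.7, 31.4, and 28.3%, without overlap. The 9 GFP libraries of all days held 24.5 to 31.4%, a range that overlapped with that of IFN-alpha. The median retained plus-strand site was at 26.9% in GFP cells of day 4 and 16.2% with IFN-alpha (43 tested, 0 called, median log2 odds ratio -0.69), and for the 6 minus-strand sites tested the median log2 odds ratio was 0.21.

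**Figure D3:**
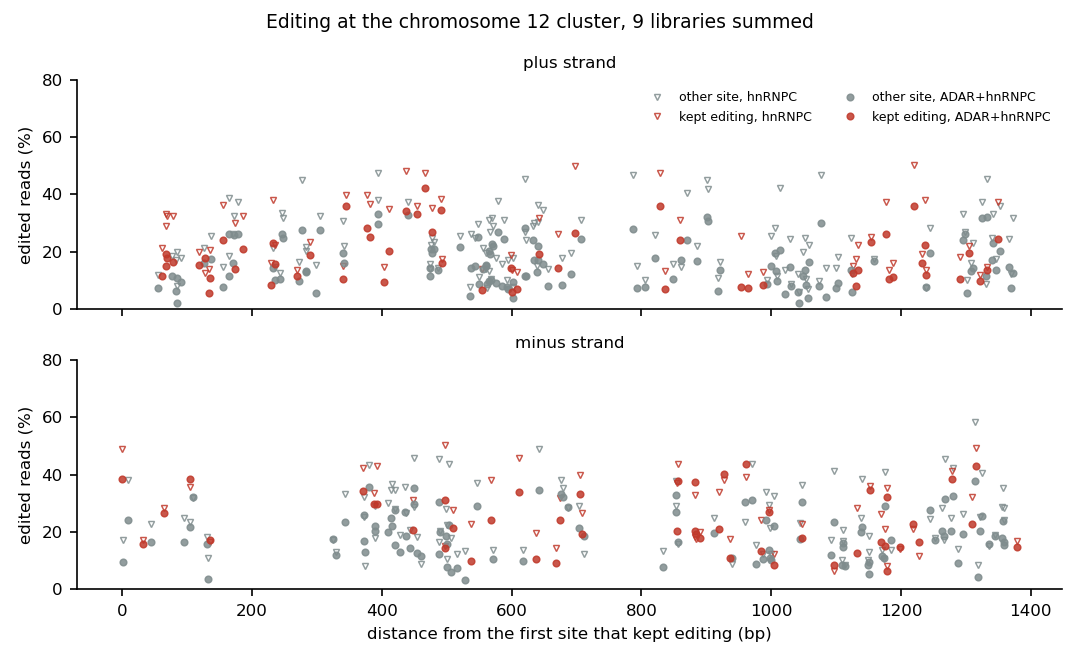
Edited reads in percent (y axis), summed over 9 libraries, at the sites of the range in the cluster on chromosome 12 by the distance from its first retained site in bp (x axis), for the plus strand and the minus strand, in hnRNPC (open triangles) and in ADAR+hnRNPC cells (filled circles), with retained sites in red and the others in gray. The median retained site went from 21.9 to 14.9% on the plus strand and from 28.5 to 21.0% on the minus strand.

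Of the single sites, the 6 with the most reads in hnRNPC and ADAR+hnRNPC cells covered both patterns. At the site in the 3' UTR of SAMHD1, a dNTP hydrolase that restricts retroviruses, editing was 7.89 to 12.6% in hnRNPC libraries (median 10.9, n = 8) and 7.25 to 13.7% in ADAR+hnRNPC libraries (median 10.6, n = 9), with overlapping groups. The log2 odds ratio was 0.00 (interval -0.29 to 0.29) over 3642 and 3864 reads. The site lies in a run of purines, and in the WT clone it was edited at 5.5% without and 8.07% with ADAR gRNA. An hnRNPC library held an empty value there and was left out of this fit. The fits of this comparison at KNL1, SDHAF4, NDUFB1, HIST2H2AA3, HNRNPA1L3, and the second SLFN13 site below left out libraries for the same reason, and these sites are not among the 957. Their p values were adjusted over the sites tested when a library with an empty value counts as holding no reads, not over the 223632.

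In the 3' UTR of KNL1, a scaffold of the kinetochore, editing was 17.4 to 26.4% in hnRNPC libraries (median 20.6, n = 8) and 14.5 to 19% in ADAR+hnRNPC libraries (median 16.7, n = 9). The groups overlapped, and the log2 odds ratio was -0.44 (SE 0.11, limma-moderated fit, adjusted p = 0.016). In the WT clone it was -1.28 (SE 0.16, adjusted p = 0.00349), with 22.0 and 10.3% edited. In the 5' UTR of NDUFB1, a subunit of respiratory complex I, editing was 28.3 to 32.6% (median 31.2, n = 8) and 18.9 to 24.1% (median 22.4, n = 8). The groups did not overlap, with a log2 odds ratio of -0.69 (SE 0.13, limma-moderated fit, adjusted p = 0.00109). Its 31-base window occurs once in GRCh37, and 2 times with G at the site.

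In the 3' UTR of SDHAF4, an assembly factor of succinate dehydrogenase, editing was 8.33 to 16.4% (median 12.7, n = 8) and 9.31 to 12.9% (median 10.3, n = 9), with overlap and a log2 odds ratio of -0.26 (interval -0.57 to 0.04). It was called lower in the WT clone, at 16.4 and 8.15% (log2 odds ratio -1.13, SE 0.19, limma-moderated fit, adjusted p = 0.0144). In the 3' UTR of IRAK4, a kinase of Toll-like and interleukin-1 receptor signaling, editing was 48.1 to 60.9% (median 57.2, n = 9) and 39.2 to 58.2% (median 49.4, n = 9), with overlap and a log2 odds ratio of -0.37 (interval -0.64 to -0.10, adjusted p = 0.0927 in the limma-moderated fit). Its 31-base window occurs 110 times in GRCh37, and 7 times with G at the site.

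The sixth, in the coding sequence of the histone gene HIST2H2AA3, varied most between libraries. Editing there ranged from 0.952 to 60% in hnRNPC libraries (median 8.16) and from 0.681 to 18.6% in ADAR+hnRNPC libraries (median 3.51), with 11 to 730 and 18 to 1616 reads. In CTRL libraries it ranged from 0.483 to 57.1%. The window occurs 3 times in GRCh37, and reads of these copies are uncertain.

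The 5 sites with the narrowest intervals within -0.5 to 0.5 lay in introns, 3' UTRs, and a pseudogene. At EEF1A1P9, a processed pseudogene of the translation elongation factor EEF1A1, editing was 44.8 to 57.7% in hnRNPC libraries (median 48.5) and 46.3 to 51.9% in ADAR+hnRNPC libraries (median 49.1). The median was between 48.5 and 50.8% in all 6 groups of study 1, the 2 that chose the site included. The log2 odds ratio was 0.01 (interval -0.35 to 0.36), and it was 0.03 with IFN-alpha (interval -0.61 to 0.66). No value used here tells editing at this site from a variant in DNA that the authors' filter on SNPs left in.

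In an intron of PIP5K1C, which makes the membrane lipid PI(4,5)P2, editing was 42.0 to 54.1% (median 48.1) and 39.0 to 52.9% (median 46.0), with overlap. The log2 odds ratio was -0.07 (interval -0.38 to 0.24), and in the WT clone, at 35 and 38.4%, it was 0.24 (interval -0.33 to 0.81). In an intron of DENND1B, an activator of the GTPase RAB35, the groups were at 22.1 to 32.3% (median 27.6) and 22.6 to 28.6% (median 25.6), and the log2 odds ratio was -0.18 (interval -0.46 to 0.11). This site in the WT clone was at 27.1 and 26.7%, with an interval from -1.24 to 1.24.

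In the 3' UTR of COG7, a subunit of a Golgi tethering complex, editing was 29.8 to 53.6% (median 44) and 34.0 to 51.4% (median 40), and the log2 odds ratio was -0.05 (interval -0.43 to 0.33). In the 3' UTR of DHTKD1, a mitochondrial dehydrogenase subunit, editing was 16.4 to 35.5% (median 25.8) and 19 to 33.3% (median 22.4), with a log2 odds ratio of 0.01 (interval -0.39 to 0.41). The groups overlapped at all 5 sites. The window of DHTKD1 occurs 627 times in GRCh37 and 13 times with G, and that of DENND1B 7 times, whereas those of PIP5K1C, EEF1A1P9, and COG7 are unique and have no copy with G.

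The 5 called sites with the largest falls had few reads. In an intron of NFYC, a subunit of the CCAAT-binding factor NF-Y, editing was 12.5 to 54.5% in hnRNPC libraries (median 22.2) and 0 to 11.1% in ADAR+hnRNPC libraries (median 3.33). The groups did not overlap, and the log2 odds ratio was -2.72 (SE 0.63, limma-moderated fit, adjusted p = 0.00354) over 160 and 146 reads. In the CTRL and ADAR libraries, which chose the site, it was edited at 13.1 and 13.5%. At the RPAP3-DT site printed above, editing was 14 to 46.7% (median 26.3) and 0 to 16.7% (median 8.7), with a narrow overlap and a log2 odds ratio of -2.11 (SE 0.48, adjusted p = 0.00393 in the same fit).

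The 3' UTR of ZNF836 (18.6 and 2.17% over 102 and 92 reads), an intron of RELA, the p65 subunit of NF-kappaB (16.8 and 3.16% over 101 and 95 reads), and a noncoding exon of PKD2L2-DT (19.1 and 4.44% over 115 and 135 reads) had log2 odds ratios of -3.67, -2.68, and -2.40. In the WT clone ZNF836 (34.8 and 7.14%), NFYC (18 and 7.69%), and RPAP3-DT (21.6 and 8.57%) were lower as well, without passing the test at any of the 3 (limma-moderated fit, adjusted p = 0.126, 0.215, and 0.136).

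Coding sequence held 10 retained sites in 7 genes. At 7 of them the window occurs more than once in GRCh37 or also occurs with G at the site, so that reads from copies of the gene are uncertain. SLFN13, a Schlafen family RNase, held 3 of the 8 with the most reads. In hnRNPC libraries they were edited at medians of 18.8% (0 to 28.6), 16.4% (0 to 37.5), and 17.6% (0 to 38.9), and in ADAR+hnRNPC libraries at 12.1% (6.98 to 30), 11.9% (0 to 25), and 12.9% (0 to 27.3). The groups overlapped at each, and the log2 odds ratios were -0.30, -0.25, and -0.45, with the widest interval from -1.38 to 0.88. The first of the 3 has 1 copy with G at the site, and the others have unique windows.

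The zinc finger gene ZNF726, with a unique window, was edited at 9.68 to 40.5% (median 27.8) and 4.35 to 51.5% (median 35.3), with a log2 odds ratio of 0.14 (interval -0.67 to 0.95). RIMBP3B (median 35.3 and 30.4%, window found 3 times), NBPF16 (34.8 and 44.4%, 64 copies with G), and HNRNPA1L3, an intronless copy of HNRNPA1 (42.9 and 47.1%, 18 copies with G), had log2 odds ratios of -0.08, 0.89, and 0.27. None of the 8 was called in this comparison, and their reads per library were 2 to 1616 over the groups of study 1.

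With IFN-alpha, which induces ADAR, editing of the retained sites differed less from its control than editing of the other sites of the range. The comparison set NC1 cells with IFN-alpha against GFP cells of day 4, since the rule had used the CTRL libraries, and the gRNA differs along with the treatment. The 3 IFN-alpha libraries held 23.4, 25, and 26.7% edited reads on the retained sites, and the 3 GFP libraries 23.9, 24.8, and 25.1%, with overlap. On the other sites of the range the IFN-alpha libraries held 28.8, 32.2, and 36.0%, above all 9 GFP libraries (18.6 to 20.3%). ADAR mRNA was at 1040 to 1266 CPM in the IFN-alpha and 378.1 to 445.7 CPM in the GFP libraries of day 4.

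Of 761 retained sites tested, editing was higher with IFN-alpha at 2 (0.263%, compared with 5.72% of all 124759 sites tested and 15.7% of the other sites of the range) and lower at 1 (0.0104% of all sites and 0.0161% of the other sites of the range). The median log2 odds ratio was 0.03 (quartiles -0.50 and 0.53), with the median site at 22.4 and 22.7%, and 57 sites (7.49%) had an unadjusted p under 0.05, compared with 12% of all sites tested and 31.8% of the other sites of the range. For the other sites of the range the median was 0.85, from 17.1 to 27.3%.

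The 2 higher sites lay in 3' UTRs. In COX18, an insertase of the inner mitochondrial membrane, editing was 27.3, 27.6, and 30.4% with IFN-alpha and 12.5, 14.8, and 10.7% in GFP cells of day 4 (log2 odds ratio 1.46, SE 0.50, limma-moderated fit, adjusted p = 0.0473). In MAD2L1, a component of the spindle checkpoint, it was 62.5, 65.7, and 74.5% compared with 52.2, 43.1, and 45.7% (log2 odds ratio 1.43, SE 0.42, adjusted p = 0.013 in the same fit). The groups did not overlap at either site. The lower site, in the 3' UTR of the potassium channel gene KCNK6 and named after its values were seen, was at 3.37% with IFN-alpha and 17.7% in GFP cells over 89 and 124 reads (log2 odds ratio -2.63, SE 1.0, limma-moderated fit, adjusted p = 0.0322). The higher sites were 0 by edgeR, 6 by Fisher's exact test, and 13 by limma on log2 odds, and the lower sites 0, 2, and 1. These calls rest on single libraries, and with a replicate block no retained site was called. Without IFN-alpha replicate 2 or GFP replicate 2 or 3, 0 were higher, and without IFN-alpha replicate 3 or GFP replicate 1, 1 was. Without any 1 of the GFP replicates 0 were lower, and without IFN-alpha replicate 1, 4 were. Over all sites tested, 3829 to 6879 were higher with 1 library left out, compared with 7136 in the full fit.

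With hnRNPC targeting, the log2 odds ratios of the retained sites were centered close to those of the other sites of the range. The 9 GFP libraries held 23.8 to 25.5% edited reads on the retained sites (median 24.5), and the 9 hnRNPC libraries, which were also the controls of the first comparison, 25 to 27.8% (median 26.2). The ranges overlapped. Of 902 retained sites tested, 6 were higher (0.665%, compared with 0.0583% of all 183519 sites tested and 0.223% of the other sites of the range) and 1 was lower (0.00763% of all sites and 0.036% of the other sites of the range). The median log2 odds ratio was 0.14, and 0.13 for the other sites of the range, with 127 retained sites (14.1%) at an unadjusted p under 0.05, compared with 4.87% of all sites tested and 12.2% of the other sites of the range. The higher sites were 21 by Fisher's exact test and 17 by limma on log2 odds, and the lower sites 6 and 10. With a replicate block no retained site was called.

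IRAK4 was among the higher sites, with 34.6 to 48.5% in GFP (median 36.8) and 48.1 to 60.9% in hnRNPC libraries (median 57.2), a narrow overlap, and a log2 odds ratio of 0.94 (SE 0.13, limma-moderated fit, adjusted p = 0.00157). Named after their values were seen, the others included an intronic site of HSPD1, the mitochondrial chaperonin (18.4 and 37.0%, log2 odds ratio 1.43) and an intronic site of WHAMMP1, a pseudogene (11.5 and 33.8%, 2.01 on the same scale). The lower site lay in HSPD1P4, a pseudogene of HSPD1 (32.0 and 9.34% over 100 and 332 reads, log2 odds ratio -2.25). It was not called without any 1 library of day 4, without GFP replicate 1 or 3 of day 3 or of day 5, without hnRNPC replicate 1 of day 3, or without hnRNPC replicate 2 or 3 of day 5. DHTKD1 went from 14.6% (6.52 to 19) to 25.8% (16.4 to 35.5) without passing the test (log2 odds ratio 0.95, SE 0.21, limma-moderated fit, adjusted p = 0.101).

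The mRNAs of the deaminases were compared in the libraries of the first comparison. ADAR mRNA was at 400.8 to 440.8 CPM in hnRNPC (median 411.4) and 349.4 to 1626 CPM in ADAR+hnRNPC libraries (median 479.4), with overlap (log2 fold change 0.55, edgeR, adjusted p = 0.0446). The adjusted p ranged from 0.0322 to 0.114 with 1 library left out, and it was above 0.05 without any 1 of the 6 libraries of day 5, without hnRNPC replicate 1 or 3 of day 4, and without ADAR+hnRNPC replicate 3 of day 4. In CTRL and ADAR libraries it was at 371.7 to 421.2 and 353.1 to 394.5 CPM, so that the level of this mRNA does not show the targeting. ADARB1 was at 3.359 to 6.917 CPM in hnRNPC and 3.639 to 10.2 CPM in ADAR+hnRNPC libraries (log2 fold change 0.39, edgeR, adjusted p = 0.00153), and at 4.395 to 5.434 and 4.335 to 5.86 CPM in CTRL and ADAR libraries.

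Of 25 listed genes for deaminases and for proteins that bind ADAR or modulate editing, 21 were tested. None was called as changed at least 2-fold over all days together (edgeR, Benjamini-Hochberg). By that rule 1.98% of 13452 genes rose and 0 fell. The fold change is an average over the libraries of a group, and changes on single days were not tested. ADAR, which is on the list, reached 1626 CPM in ADAR+hnRNPC libraries and at most 440.8 CPM in hnRNPC libraries. An unadjusted p of at most 0.05 was reached by 15 of the 21 and by 50.8% of all genes tested, and DESeq2 called none of them either. ADARB2, the testis proteins ADAD1 and ADAD2, and DDX15, which was not found by symbol, were not tested. The tested genes of the list went both ways. ZFR had a log2 fold change of -0.22 and DHX9 of -0.15, whereas WWP2 and AIMP2 had 0.14 each. Whether these levels bear on the editing of the retained sites was not tested.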

How the data were processed

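Per the study's methods, the authors aligned reads to GRCh37 (STAR 2.5.4a), removed SNPs found in DNA of the STING-deficient clone, found editing sites with SAILOR, and deposited for each site and library the counts of edited and of all reads that passed the pipeline's filters; the deposited gene counts were of uniquely mapping reads and not normalized. The alignment kept reads with multiple matches. Here editing is edited over all reads. All value columns could be assigned to a library (0 without one). Empty values (13.7% of the retained sites and 7.28% of all sites in at least 1 library) were left out, whereas the study set them to 0, by which 1546 sites would be retained, the 1303 included.

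Sites with at least 10 reads per library on average in both groups were fitted by quasi-binomial logistic regression (scipy 1.17.1, numpy 2.4.6; likelihood-ratio F test, dispersions moderated by limma 3.58.1 squeezeVar in R 4.3.3) and called at a Benjamini-Hochberg adjusted p of at most 0.05 over all sites tested. The log2 odds ratio is treated over control, and its interval covers 95%. Genes were tested with edgeR 4.0.16 (quasi-likelihood, TMM, average log2 CPM of at least 0.5, called at a log2 fold change of at least 1). The fits were tested on simulated data. In the WT clone they called 0 of 100 sites simulated at 0.5 and 0 of 100 at 0.1 times their editing. Of the real other sites of the range, 23.5% were called lower there. The simulations changed few sites, so that their adjustment was stricter than that of the real fits. Alternatives were edgeR and limma on log2 odds, Fisher's exact test, a minimum of 20 reads, empty values as 0, other controls, cytosolic RNA, a replicate block, DESeq2 1.42.0 for genes, and each library left out.

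Annotation was GENCODE 44 lifted to GRCh37, and 16 retained sites lay on contigs not used here. Repeat annotation was not used here. Members and lists were chosen with earlier results of these data known. Named sites were the 6 with the most reads in the hnRNPC and ADAR+hnRNPC libraries, the 8 coding sites with the most such reads, the 5 narrowest intervals within -0.5 to 0.5, up to 5 called with the largest fall or with the largest rise with IFN-alpha, and 2 on either side of the ratio of 0.8, at most 1 per gene except in coding sequence. Chromosome 8 and sites without a gene symbol were left out of this choice.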

Additional observations from a re-analysis of the deposited data

How the results depend on the processing

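The median log2 odds ratio of the retained sites kept its sign in the first comparison (-0.49 to -0.44 with each library left out), in the WT clone (-0.78 to -0.61), and with hnRNPC targeting (0.13 to 0.16), whereas with IFN-alpha it ranged from -0.06 to 0.05. Counts of calls moved more, and those by other methods and filters are given for the retained sites alone, without the share of all sites. Lower sites in ADAR+hnRNPC cells (46) were 122 by Fisher's exact test on summed reads, 95 by limma, and 29 with 20 reads, and higher sites (0) were 2 by Fisher's test, 3 by limma, and 1 with empty values as 0. Lower sites in the WT clone (9) were 91 by Fisher's test, 149 by limma, 18 by edgeR, 18 with 20 reads, 14 with empty values as 0, and 32 in cytosolic RNA, and higher sites (0) were 1 by Fisher's test, 3 by limma, and 1 in cytosolic RNA. With IFN-alpha, higher sites (2) were 7 against CTRL cells, 6 by Fisher's test, 13 by limma, 0 by edgeR, 4 with 20 reads, and 4 with empty values as 0, and lower sites (1) were 0 against CTRL cells, 2 by Fisher's test, 0 by edgeR, and 4 with empty values as 0. With hnRNPC targeting, higher sites (6) were 21 by Fisher's test and 17 by limma, and lower sites (1) were 0 against CTRL cells, 6 by Fisher's test, 3 by edgeR, 10 by limma, and 3 with empty values as 0. The cause was not tested. With 1 library left out, lower and higher sites were 32 to 47 and 0 to 0 in the first comparison, 0 to 6 and 0 to 0 in the WT clone, 0 to 4 and 0 to 2 with IFN-alpha, and 0 to 1 and 5 to 6 with hnRNPC targeting. Over all sites, lower sites were then 10299 to 13182 in the first comparison and 0 to 4363 in the WT clone. Higher sites over all sites were 3829 to 6879 with IFN-alpha and 64 to 104 with hnRNPC targeting. Genes of the editing list had 0 calls in every setting.

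At single sites, libraries of the same replicate number did not deviate together (correlations -0.05 to 0.06), and the numbers were not taken as pairs. Pooled over the retained sites, replicate 1 was lowest in every group of day 4. It held 22.9% in CTRL, 25.4% in hnRNPC, 21% in ADAR, 19.6% in ADAR+hnRNPC, 23.9% in GFP, and 23.4% in IFN-alpha libraries. On day 3, replicate 3 was highest in every group, and on day 5 no number was lowest or highest in all. The correlations can therefore not exclude that a number marks a shared experiment. With the replicate block, lower and higher sites were 4 and 0 in the first comparison and 0 and 0 in the WT clone, with IFN-alpha, and with hnRNPC targeting. The adjusted p of ADAR mRNA (edgeR) was 0.125 with the block. A site that was not called is not shown to have kept its editing.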
